A study of Mus musculus with 6 samples.

Results

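DNA methylation at 10 genes of the contractile smooth muscle programme was examined in mouse primary mesangial cells by methylated DNA immunoprecipitation and sequencing (MeDIP-seq). The genes were Acta2, Actg2, Tagln, Cnn1, Cald1, Smtn, Myh11, Myh9, Mylk and Myocd, taken by name, and all 10 were found among the 22380 protein-coding genes of GENCODE vM1 (mm9). Every peak whose summit lay in 1 of the genes or within 5 kb of either end was taken, and peaks sharing 1 bp or more were merged into regions. This gave 297 of the 579787 peaks and 99 of the 170444 regions of the 6 samples. The samples were 3 of control cells and 3 of cells given TGF-β1, a growth factor of kidney fibrosis, at 10 ng/ml for 72 hours. Both groups were grown in medium with 25.5 mM glucose and 20% serum and used between passages 3 and 6, so the controls shared the high glucose. The comparison addresses whether the cytokine changes DNA methylation in these cells.

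Mesangial cells are the pericyte-like cells between the capillaries of the glomerulus, and in injury they take on features of smooth muscle, with α-smooth muscle actin (the product of Acta2) as the usual marker. In smooth muscle, force comes from myosin II pulling on actin filaments after myosin light chain kinase has phosphorylated the myosin light chain, and many of the genes are switched on by serum response factor together with its coactivator myocardin. In MeDIP-seq an antibody collects DNA that carries 5-methylcytosine, which in mammals lies mostly at CpG sites, so a peak marks a stretch that is both methylated and holds enough CpG sites to be captured. The height of a peak is given here as its pileup, the extended reads counted at the summit, with no scaling for depth. A sample with no peak in a region missed the threshold of the peak caller there (a q of 0.01), and its reads in that region are not known from the peak lists. The lists hold no expression values, so the identity of the cells could not be checked on marker genes.

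The control samples held 10319496, 9407103 and 11494356 reads and the TGF-β1 samples 12748318, 12634300 and 13291419 reads. Every TGF-β1 sample was deeper than every control sample, so in any count of peaks the treatment and the depth cannot be told apart. The lowest pileup called was 8 in each control sample and 9, 9 and 10 in the TGF-β1 samples. The labels do not say that the samples of a group came from separate cultures, and the p-values measure only the spread between these samples.

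The sequences shown are a region over a gene start (Smtn), a region at an internal start that differed in shape (Cald1), a region called in each group only (Cnn1 and Myocd), and the Acta2 gene, where the peaks lay far from the start. Each is given 5′ to 3′ with its CpG sites in capitals. The regions are shown as 240 bases around the median summit on the plus strand of NCBIM37 (mm9), and the Acta2 promoter is the RefSeq stretch from 250 bases before to 50 bases after the start on the minus strand, at chr19:34255324-34255623 of GRCm38.p6, which matches chr19:34329814-34330113 of mm9 exactly.
Smtn start, chr11:3440514-3440753: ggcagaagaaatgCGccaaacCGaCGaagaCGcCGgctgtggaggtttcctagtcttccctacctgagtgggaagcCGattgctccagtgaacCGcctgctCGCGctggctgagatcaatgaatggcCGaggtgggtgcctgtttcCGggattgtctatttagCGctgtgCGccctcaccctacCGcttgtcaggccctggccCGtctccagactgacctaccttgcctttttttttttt
Cald1 internal start, chr6:34695480-34695719: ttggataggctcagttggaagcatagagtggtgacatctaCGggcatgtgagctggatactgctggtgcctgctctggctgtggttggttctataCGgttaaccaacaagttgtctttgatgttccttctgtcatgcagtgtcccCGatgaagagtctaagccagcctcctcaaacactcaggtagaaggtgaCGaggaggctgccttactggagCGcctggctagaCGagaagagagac
Cnn1 intron 2, called in TGF-β1 only, chr9:21906477-21906716: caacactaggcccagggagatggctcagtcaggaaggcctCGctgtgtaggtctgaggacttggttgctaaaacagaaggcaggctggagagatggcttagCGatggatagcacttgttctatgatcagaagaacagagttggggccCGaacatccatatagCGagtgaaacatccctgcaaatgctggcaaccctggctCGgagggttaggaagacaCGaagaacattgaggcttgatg
Myocd intron 1, called in control only, chr11:65048509-65048748: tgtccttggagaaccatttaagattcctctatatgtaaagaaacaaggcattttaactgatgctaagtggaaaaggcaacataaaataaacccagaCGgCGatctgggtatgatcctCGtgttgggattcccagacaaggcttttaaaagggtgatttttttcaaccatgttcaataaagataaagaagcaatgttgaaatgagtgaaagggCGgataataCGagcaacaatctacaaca
Acta2 exon 9, chr19:34316075-34316314: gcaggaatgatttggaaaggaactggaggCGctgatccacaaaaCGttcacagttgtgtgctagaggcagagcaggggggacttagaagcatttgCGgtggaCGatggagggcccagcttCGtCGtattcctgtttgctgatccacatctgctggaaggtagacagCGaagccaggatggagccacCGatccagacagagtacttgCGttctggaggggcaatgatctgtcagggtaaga
Acta2 promoter, RefSeq: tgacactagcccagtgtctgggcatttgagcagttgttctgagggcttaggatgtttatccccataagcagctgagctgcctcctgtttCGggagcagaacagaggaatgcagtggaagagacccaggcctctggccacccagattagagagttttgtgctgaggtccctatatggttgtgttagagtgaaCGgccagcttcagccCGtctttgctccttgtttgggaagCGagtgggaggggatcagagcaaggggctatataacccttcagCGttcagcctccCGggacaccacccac

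The Smtn stretch is the richest in CpG sites of these, with 15, and the Myocd stretch the poorest, with 5. The Acta2 promoter holds 6 CpG sites in 300 bases, against a median of 7 (quartiles 3 and 20) over 32851 RefSeq promoters, and the last stretch of the gene, in exon 9, holds 9 in 240.

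All 10 genes had a peak in at least 1 sample, and the regions lay along gene bodies more than at starts. Of the 99 regions, 70 lay in introns (70.7%), 14 in coding exons, 7 upstream, 3 downstream, 1 in an untranslated exon and 4 in a part of Mylk outside its protein-coding transcripts. The long genes held most of them, with 33 regions at Mylk, 26 at Cald1 and 13 at Myh9, while Cnn1 held 1 and Acta2 and Actg2 held 2 each. Over the length of the windows, the median was 1.03 regions per 10 kb, against 0.946 over all protein-coding genes. The map of regions along each gene shows this spread.

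**Figure D1:**
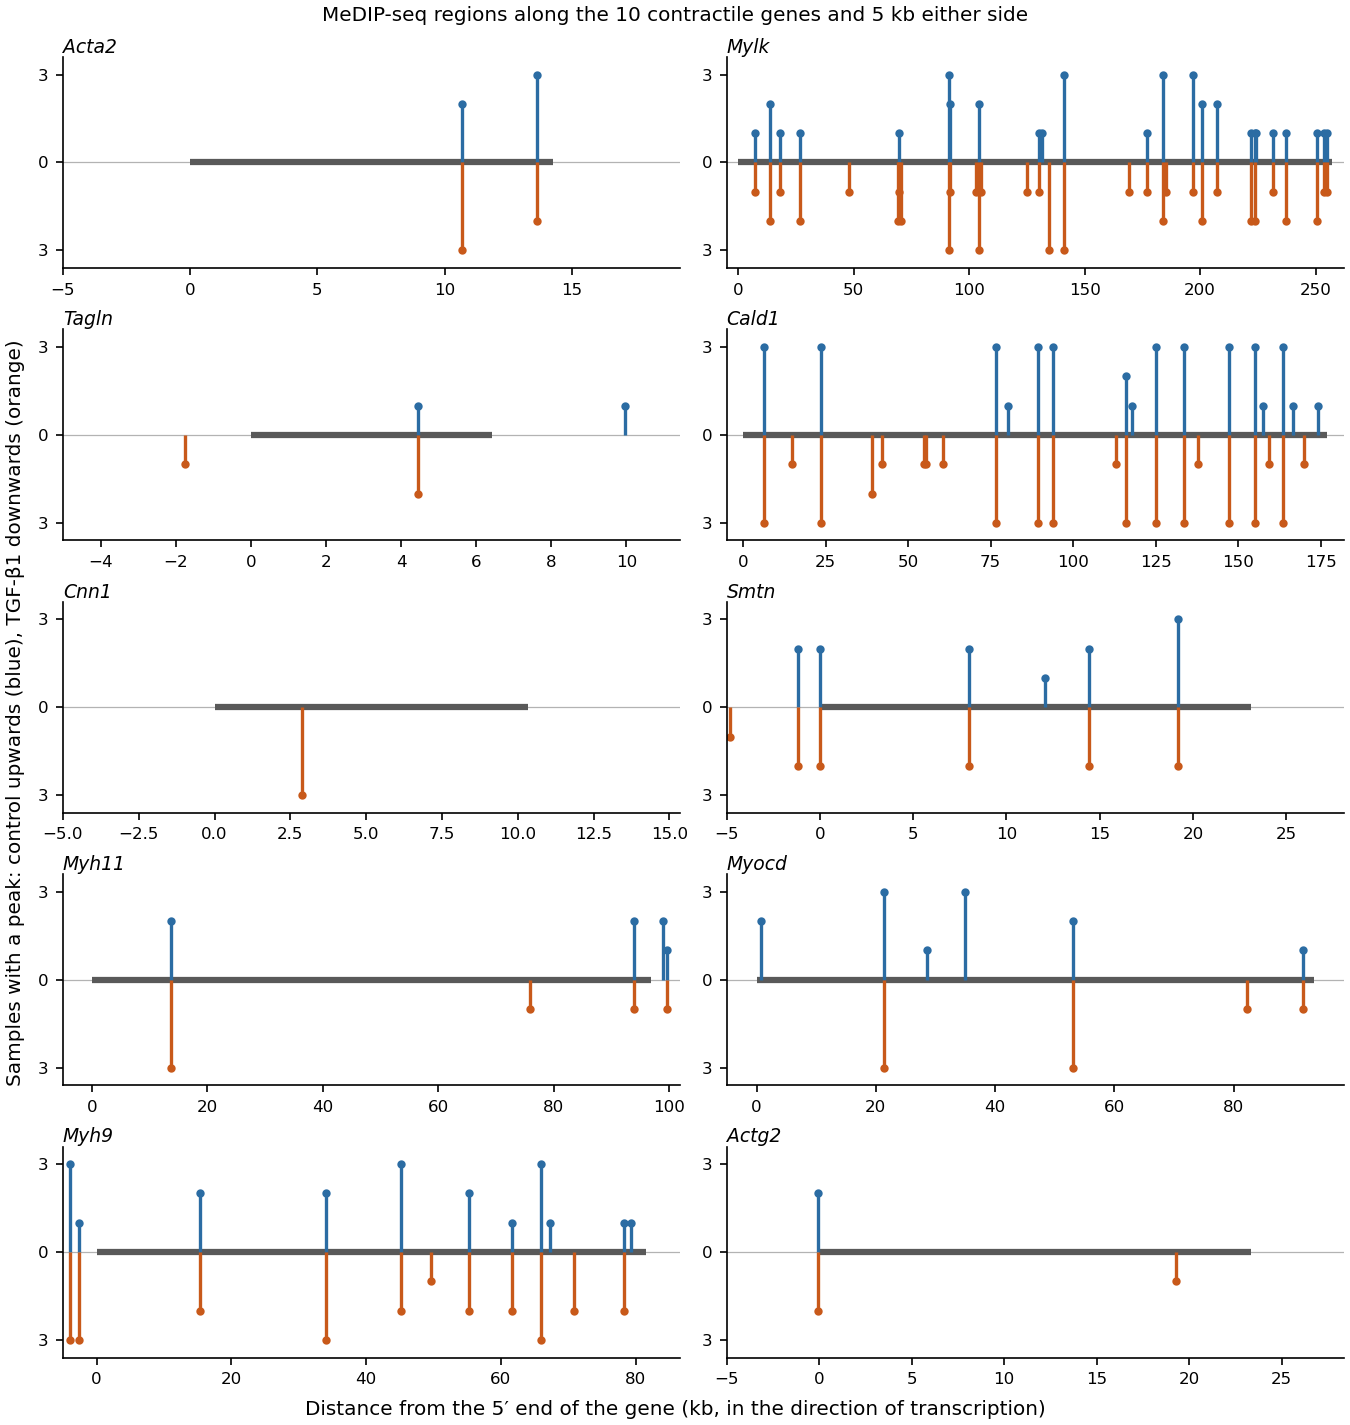
Regions along the 10 genes by distance from the 5′ end of the gene (x axis, kb, a scale for each gene; the grey bar is the gene), with bars upwards for the number of control samples and downwards for the number of TGF-β1 samples with a peak (0 to 3). Most regions lie inside the gene, Cald1 has 10 regions reaching 3 in both directions, and Cnn1 has a bar in the TGF-β1 direction only.

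The share of regions called in every sample was lower at the 10 genes than over the genome, which is given as a description with no test. At the 10 genes, 15 of the 99 regions had a peak in all 6 samples (15.2%), where 24.5% of all regions did, and 33 regions (33.3%) were called in a single sample, where 27.3% of all regions were. The 15 shared regions fell in 4 genes (40%), with 10 at Cald1, 2 at Myh9, 2 at Mylk and 1 at Myocd. Over all protein-coding genes, 48.0% held such a region.

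In total 41, 43 and 54 peaks fell in the windows in control and 53, 52 and 54 after TGF-β1. The means were 46 ± 7 (SD, n = 3) and 53 ± 1 (SD, n = 3), a difference of 7 that was no larger than the SD of the controls, and control replicate 3 reached the highest TGF-β1 value. Per 1000000 reads the order turned, with 4.41 ± 0.387 peaks in control and 4.11 ± 0.0474 peaks in TGF-β1 (SD, n = 3). As a share of each sample's own peaks, the windows took 0.0506% ± 0.00309 and 0.0517% ± 0.000494 (SD, n = 3), values that overlapped.

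Gene by gene, only Cnn1 had groups that did not overlap. This was 1 of 10 genes, and among the 17962 protein-coding genes with a peak, 3.94% had more peaks in every TGF-β1 than in every control sample and 0.345% had fewer. The exact two-sided permutation test gave p = 0.1 for Cnn1, the smallest that 3 samples against 3 allow, and an adjusted p of 1 over all 17962 genes. No gene of the genome passed at an adjusted p of 0.05, although 769 reached the smallest p, so the test cannot call a gene in this design.

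**Figure D2:**
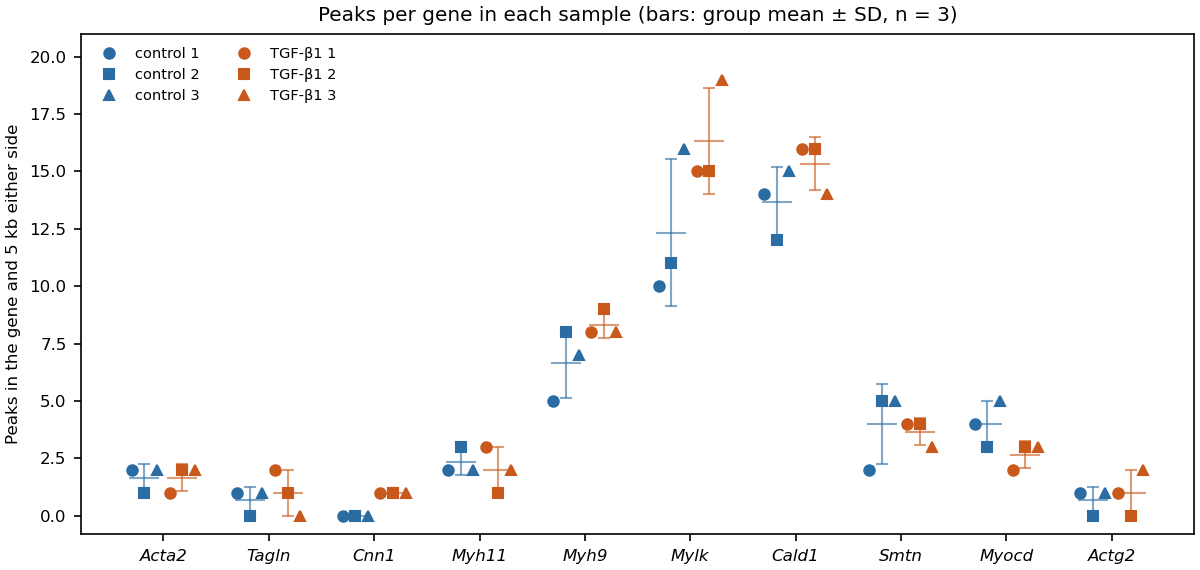
Peaks in each gene and 5 kb either side (y axis, number of peaks) in the 3 control (blue) and 3 TGF-β1 samples (orange), with the mean and SD of each group. Cnn1 is at 0 in every control and at 1 in every TGF-β1 sample, and in the other 9 genes the groups overlap.

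The smooth muscle actins held few called regions. Acta2 (chr19:34315580-34329826, minus strand) had 2, 1 and 2 peaks in control and 1, 2 and 2 peaks after TGF-β1, all in the last part of the gene. In coding exon 9 (chr19:34316010-34316376) the pileup was 27, 17 and 28 in control, and 27 and 28 in TGF-β1 replicates 2 and 3, with no peak in replicate 1. In intron 7 (chr19:34318932-34319361) it was 30 and 21 in control replicates 1 and 3, and 23, 27 and 34 in TGF-β1, with no peak in control replicate 2. Both regions thus had a peak in 5 of 6 samples and overlapping heights. The nearest of them lay 10693 bp from the start, and no sample had a peak over the RefSeq promoter.

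Actg2, the γ-actin of enteric smooth muscle (chr6:83462899-83486259, minus strand), showed the opposite placing, with its main region at the start. The region, with its median summit 47 bp upstream, had a pileup of 14 and 17 in control replicates 1 and 3 and of 17 and 18 in TGF-β1 replicates 1 and 3. Replicate 2 of both groups had no peak there. The other Actg2 region, in intron 7, was called in TGF-β1 replicate 3 alone, at a pileup of 19.

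Tagln and Cnn1 encode transgelin (SM22α) and calponin 1, actin-binding proteins that are standard markers of differentiated smooth muscle. Tagln (chr9:45737711-45744141, minus strand) had 1, 0 and 1 peaks in control and 2, 1 and 0 peaks in TGF-β1. Its region in coding exon 2 (chr9:45739540-45739893) had a pileup of 20 in control replicate 3, and of 18 and 16 in TGF-β1 replicates 1 and 2. A region 1757 bp upstream of the start (chr9:45745841-45746126) was called in TGF-β1 replicate 1 only, at 13, and a downstream region, which lies in the neighbouring gene Pcsk7, in control replicate 1 only, at 18. No Tagln region was called in more than 3 of the 6 samples.

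Cnn1 (chr9:21903725-21914074, plus strand) carried the only region among the 10 genes that set the number of peaks of a gene apart between the groups. The region chr9:21906348-21906755 in intron 2, 2872 bp downstream of the start, had a pileup of 13, 11 and 13 in the TGF-β1 samples and no peak in any control sample. These were low peaks, with an enrichment over local background of 4.75, 3.77 and 4.03 fold, and none of them remained at a fold enrichment of at least 5. The RefSeq promoter of Cnn1 (6 CpG sites) had no peak in any sample.

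Caldesmon, the product of Cald1, binds actin and tropomyosin and restrains the myosin ATPase. Cald1 (chr6:34548500-34725473, plus strand) had 14, 12 and 15 peaks in control and 16, 16 and 14 in TGF-β1, and 10 of its 26 regions were called in all 6 samples, more than at any other of the genes. The 3 highest of these all lay in intron 3. At chr6:34637502-34637953, which also lies within Gm11157, the pileup was 27, 20 and 28 in control and 35, 35 and 37 in TGF-β1, so that every TGF-β1 sample was higher before scaling. This was so in 1 of the 15 shared regions at the 10 genes and in 14.6% of all shared regions, while every TGF-β1 sample was lower in 0 of the 15 and in 0.309% of all. After each sample was centred on its median, the difference was a log2 of 0.31 (SE 0.20, limma adjusted p = 0.999). At chr6:34642296-34642730 the pileup was 24, 34 and 22 against 29, 30 and 36, and at chr6:34681397-34682205 it was 24, 21 and 33 against 43, 28 and 27, with overlapping groups in both.

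A region of Cald1 at an internal transcript start differed in shape rather than in height. The region chr6:34695430-34696601, with its median summit in intron 4 and 352 bp upstream of that start, reached a pileup of 21, 23 and 39 in control and 30, 28 and 33 in TGF-β1. In each control sample it was called as 2 peaks, of 296 and 336 bp, 387 and 305 bp, and 378 and 396 bp, with a gap between them. In the TGF-β1 samples it was called as a single peak of 761, 776 and 1164 bp. A region split in every control and whole in every TGF-β1 sample was found in 7 of the 41744 shared regions (0.0168%), and the reverse in 8 (0.0192%). The share among regions split in any sample was not computed. The TGF-β1 samples were also the deeper ones, and the part of depth in the joining of the peaks was not tested. This pattern was noticed after the peaks had been seen. The split of another Cald1 region, in intron 9 (chr6:34711494-34712440), did not follow the groups. It was called as 2 peaks in control replicate 1 and TGF-β1 replicates 1 and 2, and as 1 peak in the other samples.

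Smtn encodes smoothelin, a protein of the actin filaments of fully differentiated contractile cells. Smtn (chr11:3417526-3440615, minus strand) had 2, 5 and 5 peaks in control and 4, 4 and 3 in TGF-β1, and was the gene with the most regions at starts, 3 of its 7. The region over the gene start (chr11:3440402-3440933, 19 bp upstream) had a pileup of 12 and 38 in control replicates 2 and 3, and of 13 and 23 in TGF-β1 replicates 1 and 2. It holds 16 CpG sites in the 300 bases around its summit, and its height varied more within each group than between them. The region 1150 bp upstream (chr11:3441502-3441950) had a pileup of 21 and 25 in control replicates 2 and 3 and of 21 and 19 in TGF-β1 replicates 2 and 3. Control replicate 1 had no peak in either of them and was the only sample with a peak at an internal start (chr11:3428328-3428609, pileup 15).

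**Figure D3:**
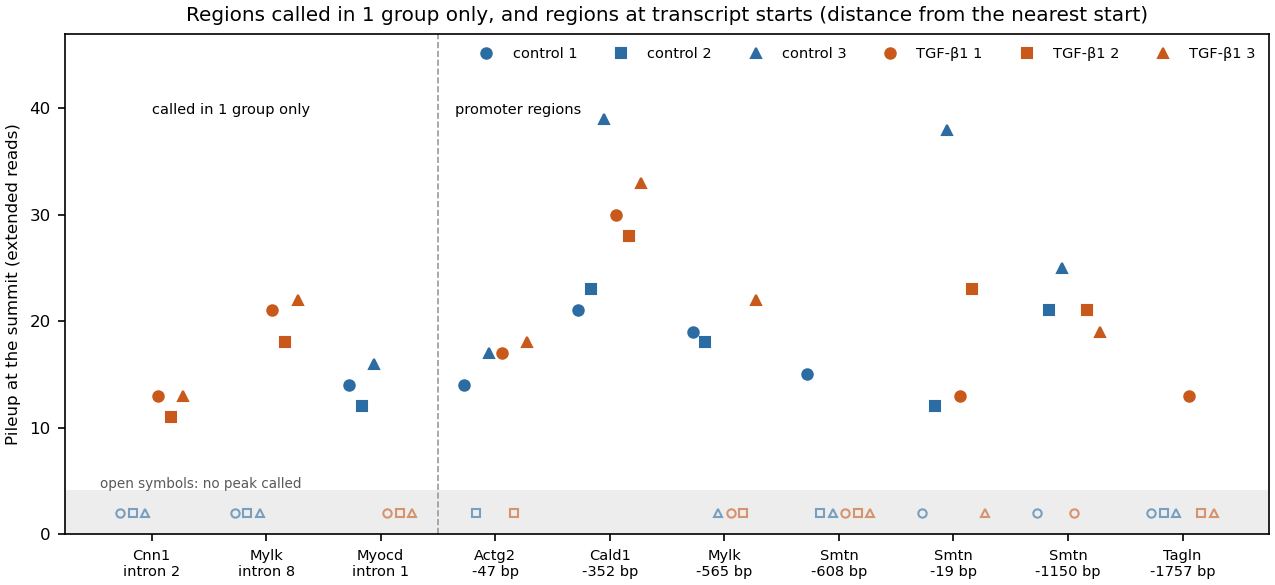
Pileup at the summit (y axis, extended reads, not scaled for depth) in each control (blue) and TGF-β1 sample (orange) at the 3 regions called in 1 group only and the 7 regions at transcript starts. Open symbols in the grey band stand for samples with no peak, and only the Cald1 region has a peak in all 6 samples.

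Myh11 and Myh9 are myosin II heavy chains, Myh11 that of smooth muscle and Myh9 the non-muscle chain found in most cells. Myh11 (chr16:14194620-14291501, minus strand) had 2, 3 and 2 peaks in control and 3, 1 and 2 in TGF-β1, in 5 regions, of which the 2 downstream ones lie in the neighbouring gene Nde1. Its most shared region, in coding exon 2 (chr16:14277585-14278017), had a pileup of 18 and 17 in control replicates 1 and 3, and of 20, 21 and 23 in TGF-β1. The 3 TGF-β1 values were above both control values, but control replicate 2 had no peak, and the region lay 13695 bp from the start.

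Myh9 (chr15:77591017-77672605, minus strand) had 5, 8 and 7 peaks in control and 8, 9 and 8 in TGF-β1. Of its 13 regions, 2 were shared by all samples. In intron 20 (chr15:77606498-77606899) the pileup was 30, 22 and 36 in control and 22, 21 and 35 in TGF-β1, a log2 difference of -0.41 (SE 0.22, limma adjusted p = 0.999). At chr15:77676311-77676712, 3905 bp upstream of the gene, it was 27, 31 and 38 against 40, 35 and 23. The groups overlapped in both regions. The RefSeq promoter of Myh9, which holds 19 CpG sites, had no peak in any sample.

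Mylk encodes myosin light chain kinase, the enzyme that starts contraction. Mylk (chr16:34745296-35002520, plus strand) was the longest gene and had 10, 11 and 16 peaks in control and 15, 15 and 19 in TGF-β1. Its groups overlapped only through control replicate 3, the deepest of the control samples. Without that sample the difference was 5.83 peaks and the groups came apart, and the share of all genes that did so was not computed. With all samples the difference was 4 peaks, 0.667 with peaks of 5 fold enrichment or more, and 0.0877 per 1000000 reads. A region in intron 8 had a pileup of 21, 18 and 22 in the TGF-β1 samples and no peak in any control sample, with enrichments of 4.78, 4.78 and 4.87 fold. It holds 3 CpG sites in the 300 bases around its summit, where the 99 regions ran from 2 to 19. The region near an internal start (chr16:34952600-34952962, 565 bp upstream, in intron 18) had a pileup of 19 and 18 in control replicates 1 and 2 and of 22 in TGF-β1 replicate 3. The 2 shared regions of Mylk were in intron 2 (chr16:34836226-34836612), at 15, 15 and 17 against 18, 17 and 29, and in intron 9 (chr16:34886108-34886677), at 15, 15 and 15 against 25, 14 and 33. The wide spread in intron 9 came from the TGF-β1 samples, whose lowest value was below all the controls.

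Myocd encodes myocardin, the coactivator that commits cells to the smooth muscle programme. Myocd (chr11:64990063-65083491, minus strand) had 4, 3 and 5 peaks in control and 2, 3 and 3 in TGF-β1, a difference in the means of -1.33, beside -0.333 at Myh11 and at Smtn and 0 or more at the other genes. The groups met at 3 peaks. A region in intron 1 (chr11:65048490-65048843) had a pileup of 14, 12 and 16 in the control samples, with enrichments of 5.87, 5.37 and 6.16 fold, and no peak in any TGF-β1 sample. A further region in intron 1, 618 bp downstream of the nearest annotated transcript start (chr11:65082501-65082899), had a pileup of 20 and 21 in control replicates 1 and 3 and no peak in the TGF-β1 samples. It falls outside the rules by which single regions were chosen and was picked after its values were seen. In the region of Myocd shared by all samples, also in intron 1 (chr11:65061900-65062289), the pileup was 25, 19 and 26 against 28, 31 and 21, a log2 difference of -0.04 (SE 0.22, limma adjusted p = 0.999).

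The regions called in every sample of 1 group and in no sample of the other were thus 3 of 99. The 2 called in TGF-β1 only (Cnn1 and Mylk) stand against 0.948% of all regions (1616 of 170444), and the 1 called in control only (Myocd) against 0.233% (397 of 170444). Since the uncalled samples have no value in these regions, their measured heights could not be compared between the groups. A limma fit of regions called in at least 3 samples, with each sample's lowest pileup filled in, called none of the 3 (adjusted p = 0.979). In it the uncalled group stands at the filled value, so it gives no comparison of heights.

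At transcript starts, from 2 kb upstream to 500 bp downstream, the 10 genes held 5, 5 and 5 peaks in control cells and 4, 3 and 4 after TGF-β1. Every control sample was thus above every TGF-β1 sample, but this separation rested on the split Cald1 region. With each region counted once, an alternative chosen after the data had been seen, the numbers were 4, 4 and 4 against 4, 3 and 4. Over all protein-coding genes the control samples held 3031, 3650 and 4116 such peaks and the TGF-β1 samples 4032, 4023 and 4045. Among the 10 genes, 5 had a start peak in any sample (Tagln, Mylk, Cald1, Smtn and Actg2), or 50%, against 25.8% of all protein-coding genes. Internal starts were counted, and the peaks of Mylk and Cald1 lay at such starts, while Tagln had its peak in TGF-β1 replicate 1 alone. The 10 genes also had longer windows, with a median of 62.5 kb against 25.4 kb. Cald1 and Smtn (20%) had such a peak in every sample, against 6.93% of all protein-coding genes. At Smtn no single start region had a peak in every sample, and control replicate 1 had only the one at the internal start. The 7 RefSeq promoter stretches that could be matched (Acta2, Cnn1, Myh9, Mylk, Smtn and 2 of Cald1, with 4 to 19 CpG sites) had no peak over them in any of the 6 samples. The share of all RefSeq promoters with a peak over them was not computed, so this is a description only. The Smtn stretch (chr11:3439246-3439545 of mm9) lies inside the gene and does not overlap its start region described above. Those of Mylk and Cald1 are likewise apart from the internal starts that had a region.

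In the 15 shared regions no difference in pileup between the groups passed the test. By limma over all 41744 shared regions, at the thresholds of the study (an absolute log2 fold change above 2 with an adjusted p under 0.01), 0 of the 15 were called, and 0% of all shared regions were. Log2 differences over all shared regions ran only from -0.87 to 1.03, so that fold threshold could call none of them. The study applied its thresholds to read counts in merged peaks, which is another measure. The smallest adjusted p at the 15 regions was 0.999. At an unadjusted p of 0.05, 1 of the 15 passed, with a lower value in TGF-β1, and 4.18% of all shared regions did, 1.96% with a higher and 2.22% with a lower value. This region lay in intron 7 of Cald1 (chr6:34703389-34703786), with a pileup of 22, 28 and 25 in control and 20, 19 and 24 in TGF-β1. Its log2 difference of -0.47 (SE 0.21, unadjusted p = 0.0327, adjusted p = 0.999) was the largest of the 15 in size. The unadjusted p was above 0.05 with fold enrichment in place of pileup (0.0609) and without control replicate 2 (0.188, log2 difference -0.31), TGF-β1 replicate 1 (0.0640) or TGF-β1 replicate 2 (0.0822), as limma gave it. It was also above 0.05 in the limma fit of regions called in at least 3 samples (0.0675). Of the 15, 8 had higher and 7 had lower values in TGF-β1, with a median log2 difference of 0.05, a range of -0.47 to 0.37, and a median of -0.0047 over all shared regions.

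**Figure D4:**
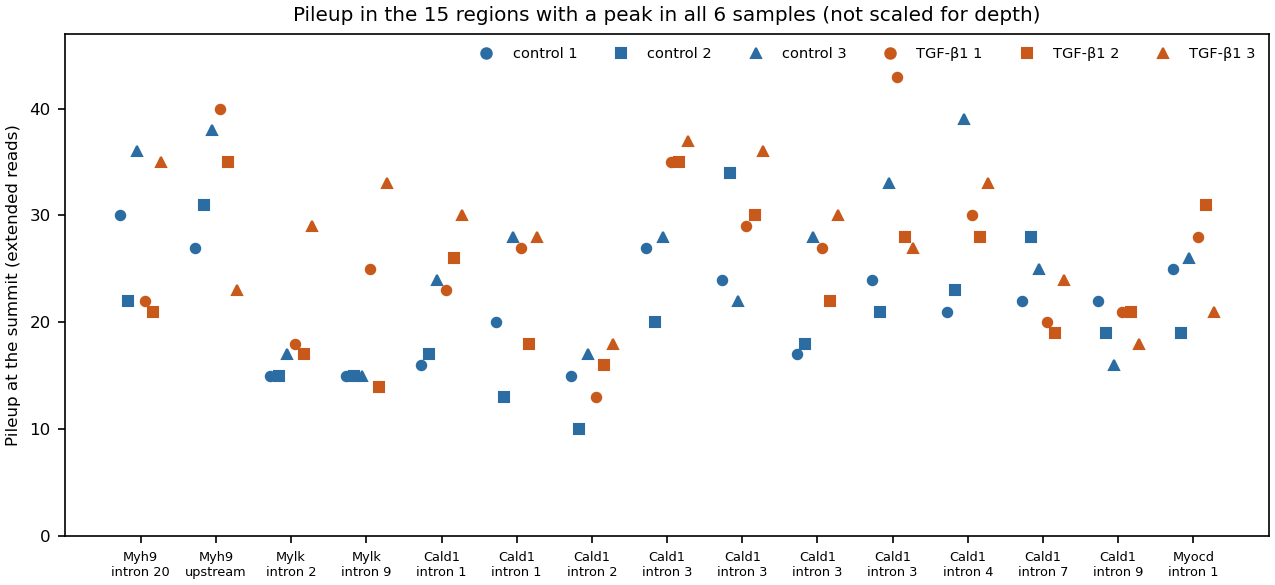
Pileup at the summit (y axis, extended reads, not scaled for depth) of the 15 shared regions, by gene and gene element, in the control (blue) and TGF-β1 samples (orange). The groups overlap in all regions but 1, in intron 3 of Cald1, where the TGF-β1 samples (35, 35 and 37) sit above the control samples (27, 20 and 28).

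The mean pileup over the peaks of a gene differed by less than the larger SD of the groups at Acta2, Myh9, Cald1 and Smtn, and by more at Mylk, Myh11 and Myocd. For Acta2 the control mean was 23.3 ± 5.84 and the TGF-β1 mean 27 ± 4 (SD, n = 3). At Myh9 it was 21.6 ± 3.05 and 23.4 ± 0.318, and at Cald1 21.2 ± 2.56 and 23.2 ± 2.35. The means of the other genes with a peak in every sample were 17.1 ± 2.18 and 19.5 ± 2.0 at Mylk, 17.3 ± 2.43 and 20.7 ± 1.93 at Myh11, 22.0 ± 6.84 and 20.7 ± 2.08 at Smtn, and 17.7 ± 2.06 and 21.4 ± 1.08 at Myocd. At Myocd the values per sample were 19, 15.3 and 18.8 in control and 22.5, 21.3 and 20.3 in TGF-β1, while its number of peaks was the lower. The means cover different peaks in each sample and are not scaled for depth, and no test was made. The share of all genes with differences of this size was not computed. Over all shared regions, the unscaled pileup was higher in every TGF-β1 sample in 14.6% and lower in 0.309%. Per 1000000 reads the order turned at all of these genes but Smtn, where the control mean was the higher on both scales. With control first, the scaled means were 2.23 ± 0.485 against 2.09 ± 0.267 at Acta2 and 2.07 ± 0.0853 against 1.82 ± 0.0300 at Myh9. Those at Cald1 were 2.04 ± 0.0719 against 1.80 ± 0.141, and those at Mylk 1.64 ± 0.0438 against 1.51 ± 0.12. They were 1.66 ± 0.0741 against 1.61 ± 0.124 at Myh11, 2.09 ± 0.475 against 1.61 ± 0.187 at Smtn, and 1.70 ± 0.12 against 1.66 ± 0.12 at Myocd. On that scale the difference was more than the larger SD at Myh9, Cald1, Mylk and Smtn, and the share of all genes was again not computed.

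The CpG content of the regions was close to that of the genome. The median was 7 CpG sites in the 300 bases around the summit, at the 99 regions and at the 169597 regions on placed chromosomes alike. Over all regions the median rose from 6 sites in regions called in 1 sample to 9 in those called in all 6. At the 10 genes it was 6 and 7 sites in the same classes, and the region with the most CpG sites (19), in intron 4 of Myh9 (chr15:77627259-77627595), had a peak in 5 samples. By gene the medians ran from 5.5 sites at Actg2 to 10 at Acta2.

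**Figure D5:**
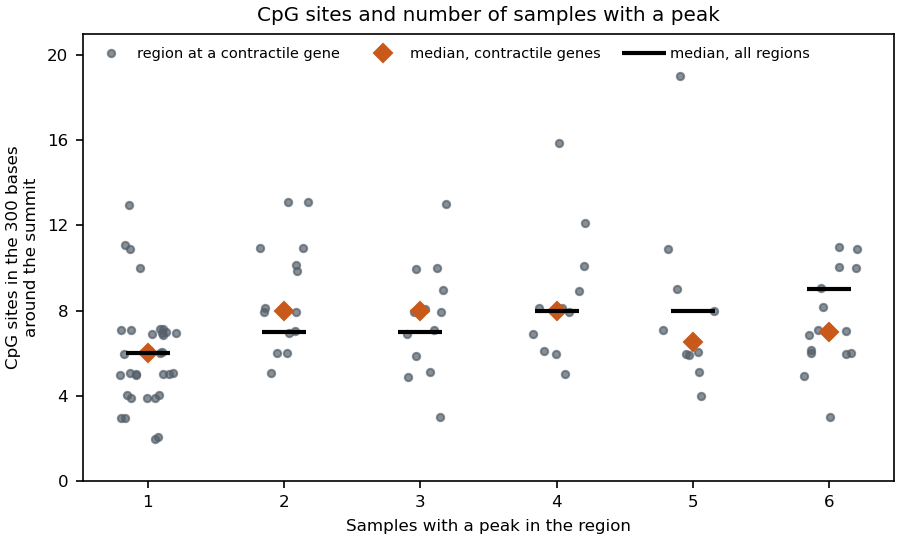
CpG sites in the 300 bases around the summit (y axis) against the number of samples with a peak (x axis), for the 99 regions at the 10 genes (dots, shifted slightly to separate them), their medians (diamonds) and the medians of all regions (bars). In regions called in all 6 samples the median is 7 at the 10 genes and 9 over all regions.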

How the data were processed

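MeDIP-seq peak lists of 3 control and 3 TGF-β1 samples were analysed, grouped by the labels. The member genes and the actomyosin list were chosen with earlier results of these data known. Per the file headers and the study's methods, the authors mapped reads to mm9 with BWA, removed duplicates and called peaks in each sample separately with MACS2 2.1.0.20150731, without an input sample, at a q of 0.01. The deposited pileup is a signal, the extended reads over the summit, without scaling for depth. As deposited, fold enrichment is a ratio (pileup to local background), and significance is given as the −log10 of the p- and q-value. Depth was 9407103 to 13291419 reads per sample.

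Peaks were joined by 1 bp of overlap (checked with bedtools 2.31.1), and elements and starts came from GENCODE vM1 on NCBIM37. The pileup of a region in a sample is that of its highest peak. Shared regions were tested with limma 3.58.1 (lmFit, eBayes with a trend) in R 4.3.3 on log2 pileup minus the median of its sample, and peaks per gene by exact permutation tests (two-sided, 20 assignments of the samples), both with Benjamini-Hochberg adjustment. The limma step was tested on simulated data. Named singly were all 10 genes and, of their regions, those in all 6 samples (the 3 highest where there were more), in 1 group only, at starts, or at an unadjusted limma p below 0.05. Other regions (of Acta2, Tagln, Myh11 and intron 7 of Actg2, near a start of Myocd, intron 4 of Myh9 and intron 9 of Cald1) were picked after their values were seen. RefSeq promoters (GRCm38.p6) were matched by symbol for 6 of 10 genes. The sequences of the regions at the Actg2 start and in Mylk intron 8 are not reported here. Alternatives were stricter peak thresholds, other windows, joining and scaling, the replicate number as a block, and leaving out each sample. A further limma fit took regions called in at least 3 samples, with the lowest pileup of a sample where it had no peak. Same-numbered samples did not deviate together (correlations of -0.130 to 0.0432), so the samples were not paired.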

Additional observations from a re-analysis of the deposited data

How the results depend on the processing

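Of 298 recomputed values, 21 reversed in direction, and 15 of those that compare the groups as a whole moved by more than the spread between replicates or, for counts, by over 1.5 times. The difference in peaks over the 10 genes (main value 7) was 0.333 with peaks of 5 fold enrichment or more and -0.302 per 1000000 reads, and ran from 4.5 (without control replicate 1) to 11 (without control replicate 3) with a sample left out. The number of genes whose groups did not overlap (main value 1) was 0 at a −log10 q of 5 or more and likewise at 5 fold or more, 3 per 1000000 reads (Cnn1, Cald1 and Myocd, the latter pair with lower values in TGF-β1), and 1 to 3 with each sample left out (Smtn added without control replicate 1, Myh9 and Myocd without control replicate 2, Mylk without control replicate 3, and Cald1 without TGF-β1 replicate 3). The regions called in 1 group only (3) were 1 at 5 fold or more, that of Myocd, and 3 to 5 with a sample left out (5 without control replicate 2, TGF-β1 replicate 1 or TGF-β1 replicate 2). The difference in start peaks (-1.33) was -2 within 1 kb either side of a start, -0.333 with each region counted once, and -1.5 to -1 with a sample left out. Shared regions numbered 16 to 18 with a sample left out. With the replicate number as a block, 3 genes had paired differences of 1 sign (Cnn1, Myh9 and Mylk, exact sign-flip p = 0.25, the smallest that 3 pairs allow), and the mean difference in peaks stayed at 7. Under these alternatives the shares over all protein-coding genes and all regions were not computed. The counts of genes and of regions called in 1 group are thus a description only. No alternative gave a limma call at the 10 genes. The smallest adjusted p at them was 0.786 to 1.0, and the regions with an unadjusted p below 0.05 went both ways: 2 lower in TGF-β1 with pileup scaled to reads and without TGF-β1 replicate 3, 1 lower and 1 higher without control replicate 1, 1 higher (Mylk intron 9) without TGF-β1 replicate 2, and 0 without TGF-β1 replicate 1.

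Of single genes, Smtn turned to 0.333 peaks at 5 fold or more, Myh11 to 0.333 with a 2 kb window, and Myh9 and Cald1 to -0.00072 and -0.121 per 1000000 reads. With a sample left out the difference ran from -1.33 to 0.167 at Smtn (turned without control replicate 2 or 3), -0.167 to 0.833 at Tagln (without TGF-β1 replicate 1) and at Actg2 (without TGF-β1 replicate 3), and -0.833 to 0.167 at Myh11 (without TGF-β1 replicate 2). In shared regions with a sample left out, the log2 difference ran from -0.18 to 0.15 in Myocd intron 1 (0.0043 with fold enrichment), from -0.41 to 0.0381 upstream of Myh9, from -0.0402 to 0.30 in Mylk intron 2, from -0.17 to 0.31 (-0.0457 scaled to reads) and from -0.14 to 0.24 in Cald1 intron 3, and from -0.15 to 0.15 in Cald1 intron 4 (0.0872 with fold enrichment). The cause of these changes was not tested. Depth limits the counts, since a region below the threshold in a shallower sample has no value.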

Other observations

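By gene, the actomyosin machinery more often held a region called in all 6 samples than the 10 genes did. By region, its share was close to that of the genome. It less often held a start peak than the 10 genes did, at a share near that of all protein-coding genes. The shares are given without a test. Of 38 genes of the actomyosin cytoskeleton, its regulation and other muscle proteins, among them actins, tropomyosins, myosin chains, intermediate filaments and serum response factor, 37 were found in the annotation and 36 had a peak. Of the 37, 27 (73.0%) held a region with a peak in all 6 samples, against 4 of the 10 contractile genes (40%), and 10 (27.0%) had a peak at a transcript start, against 5 (50%). Over all protein-coding genes the shares were 48.0% and 25.8%. The actomyosin genes had longer windows than these, with a median of 36.8 kb against 25.4 kb. By region, 66 of the 272 at these genes had a peak in all 6 samples, where 24.5% of all regions did. Of the 272 regions at these genes, 6 were called in every TGF-β1 sample and in no control sample and 0 in every control sample and no TGF-β1 sample, where 0.948% and 0.233% of all regions were.

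The 6 lay at 6 different genes. In Myl12b, a regulatory myosin light chain, the region in intron 1 had a pileup of 33, 31 and 27, the highest of the 6. In Des (desmin, a muscle intermediate filament) the region in coding exon 3 had a pileup of 21, 24 and 24, and in Actn1 (α-actinin 1, an actin crosslinker) that in coding exon 14 had 15, 16 and 23. The region 2885 bp upstream of Srf, which encodes serum response factor, had 15, 17 and 22. Csrp1 and Synpo2, which encode actin-associated proteins, had regions in intron 1 at 15, 17 and 20 and at 23, 14 and 17. In the 66 shared regions of these genes, limma called 0 at the thresholds of the study, whose fold threshold no shared region reached. At an unadjusted p below 0.05 there was 1, with the higher value in TGF-β1, where 1.96% of all shared regions had so. The TGF-β1 samples were also the deeper ones, and a part of depth in these calls was not tested.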
